A study of Mus musculus with 12 samples.

Results

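Interferon-stimulated genes are the genes that a cell switches on when it senses interferon. Here 38 of them were followed through 12 libraries of mouse embryonic fibroblasts, of 23186 genes listed in the deposited tables. The members were taken as the rows whose gene name was on a named list, and each of the 38 had a row in both deposited tables. One table covered cells carrying an Nrf2 allele and the other cells carrying a Keap1 allele, and 20844 genes were in both.

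Type I interferons bind a receptor on the cell surface whose kinases, Jak1 and Tyk2, phosphorylate Stat2. With Irf9 it enters the complex ISGF3, which binds interferon-stimulated response elements (ISREs) in promoters. The induced genes encode sensors of foreign nucleic acid, enzymes and binding proteins that block viral replication, the ubiquitin-like modifier Isg15 with its conjugating enzymes, and factors such as Irf7 that feed back on interferon production. In fibroblasts a low level of these genes is kept up by interferon that the cells themselves release, and nucleic acid in the cytosol raises it. Nrf2, encoded by Nfe2l2, is the transcription factor of the antioxidant response, and Keap1 is the adaptor that hands it to the proteasome. Nrf2 is also known to restrain interferon induction in other settings.

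Fibroblasts were isolated from embryos at day 13.5 to 14.5 and infected with adenovirus at a multiplicity of 500, and RNA was taken 4 days later, with 3 libraries in each of 4 groups. Cells homozygous for the inducible LSL-Nrf2D29H allele received adenovirus carrying Cre, which switches the D29H mutant on (the D29H group), or empty adenovirus, in which the allele is labelled as a functional knockout (the labelled knockout). Cells homozygous for the conditional CA-Keap1R554Q allele received Cre adenovirus (the R554Q group) or empty adenovirus, in which Keap1 is functionally wild type (the wild-type group). The cells of all 12 libraries were thus exposed to an adenovirus and carried an engineered allele. No group paired wild-type cells with Cre virus, so the action of Cre or its virus and that of the mutant allele cannot be told apart. The starting state also differed, a labelled knockout of Nrf2 on one side and functional Keap1 on the other, and allele, embryo and culture cannot be told apart between the Nrf2 and the Keap1 cells. Nothing in the labels says that replicates came from separate embryos or cultures, so p-values measure the spread between these libraries, which may be technical.

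Depth was 14963004 to 23818477 counted reads per library. Nfe2l2 had 40.1 to 46.5 CPM (its count as a share of the TMM-scaled library) in the labelled knockout and 49.6 to 57.1 in D29H, so its reads did not mark the knockout. The Nrf2 target Nqo1 had 8.82 ± 1.73 CPM in the labelled knockout and 119 ± 13.1 in D29H, and 33.1 ± 0.247 in the wild type and 351 ± 39.7 in R554Q (mean ± SD, n = 3). Fibroblast markers such as collagens and vimentin summed to 19404 to 25895 CPM, and erythroid markers to at most 0.723 CPM.

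The ISRE core was searched in promoters because ISGF3 and the interferon regulatory factors bind it. The letters searched were GAAA, 2 bases of any kind and GAAA again, which read as TTTC, 2 bases and TTTC when they lie on the other strand. RefSeq promoter stretches of 300 bases (250 before and 50 after a start, GRCm38.p6) were found for 29 of the 38 members, some with more than 1 start, so that they had 35 stretches. Of the 35 stretches, 13 held the letters, each from a different member, beside 3.44% of all 32851 stretches. Of the 13, 5 are shown: Stat2, Bst2 and Gbp2 because each was called in a Cre comparison, and Isg15 and Ifit1 because they were among the largest differences between the Nrf2 and Keap1 cells. Capitals mark the matches, and each line runs in the direction of the gene. The Isg15 stretch lies at chr4:156200850-156200921 and holds 3 matches that overlap. The Bst2 stretch lies at chr8:71537562-71537627 with 2 overlapping matches, Stat2 at chr10:128270251-128270310 with 1, Gbp2 at chr3:142620579-142620638 with 1 and Ifit1 at chr19:34640760-34640838 with 2 separate matches.
Isg15: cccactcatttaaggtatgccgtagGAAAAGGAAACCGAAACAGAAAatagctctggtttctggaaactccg
Bst2: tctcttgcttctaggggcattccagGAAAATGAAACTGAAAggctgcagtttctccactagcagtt
Stat2: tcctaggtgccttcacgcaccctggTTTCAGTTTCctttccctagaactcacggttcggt
Gbp2: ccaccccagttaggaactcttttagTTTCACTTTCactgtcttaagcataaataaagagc
Ifit1: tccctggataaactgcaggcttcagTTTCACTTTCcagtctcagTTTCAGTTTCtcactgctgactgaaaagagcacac
The other 8 members with the letters were Cxcl10, Ddx58, Eif2ak2, Gbp3, Ifih1, Ifit3, Oas1a and Rsad2. The gamma-activated sequence TTCNNNGAA was in 8 of the 35 stretches (8.30% of all stretches), and the antioxidant response element core TGACNNNGC, which Nrf2 binds, was in 5 of the 35 (12.4% of all). The 5 were Cxcl10, Ifi44, Irf7, Oasl2 and Rsad2. A match is a description of these letters, not a binding site.

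Per length, the members spanned several orders of magnitude and most were low in these cells. Levels between genes are compared here in deposited FPKM (reads scaled by gene length and library total), as the mean of the 12 libraries. Of the 38 members, 4 were above 10 FPKM, 18 lay between 1 and 10, and 16 were under 1. Ifi27 led with 65.3 ± 10.5, 55.7 ± 7.21, 31.5 ± 2.77 and 33.1 ± 2.07 FPKM in D29H, the labelled knockout, R554Q and the wild type (mean ± SD, n = 3). Bst2, the membrane tether that holds budding virus on the cell, had 50.2 ± 5.58, 37.3 ± 0.217, 25.2 ± 1.35 and 23.2 ± 1.73 FPKM in the same order of groups. Samhd1, an enzyme that depletes nucleotides, had 21.0 ± 2.02, 21.8 ± 3.01, 18.7 ± 0.815 and 17.5 ± 0.709 FPKM, and Lgals3bp, a secreted glycoprotein, had 20.2 ± 2.96, 16.97 ± 0.599, 11.8 ± 1.61 and 9.80 ± 0.928 FPKM. Within these 4 genes, Samhd1 differed least between groups and Ifi27 and Bst2 stood well above the Keap1 cells in the Nrf2 cells. At the foot of the order, Mx1, a dynamin-like antiviral GTPase, had 0 to 6 reads in a library. In 12 of the 38 members at least 1 library held fewer than 10 reads, which limits the precision of their values.

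**Figure D1:**
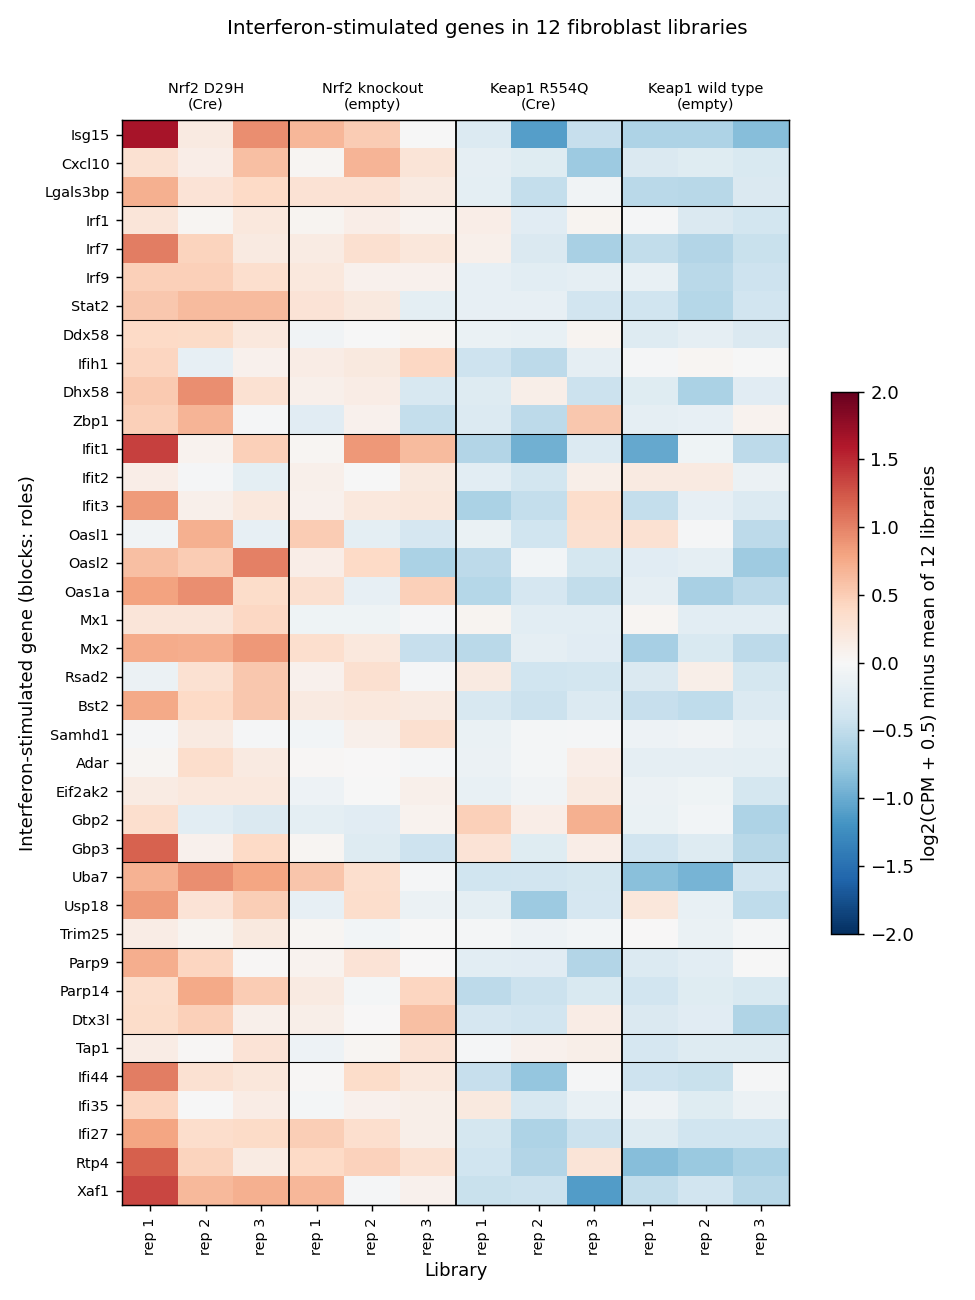
Heat map of the 38 members (rows, in blocks by role) in each of the 12 libraries (columns); colour is log2(CPM + 0.5) minus the gene's mean over the 12 libraries. Most rows are red in the 6 Nrf2 libraries and blue in the 6 Keap1 libraries, and D29H replicate 1 holds the highest value in 17 of the 38 rows.

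By the summed level of the 38 members, the 6 Nrf2 libraries lay above the 6 Keap1 libraries, and D29H lay above the labelled knockout. The sum was 613, 561 and 552 CPM in the D29H libraries and between 500.0 and 501 CPM in each labelled knockout library. It was 411, 392.1 and 434 CPM in R554Q and 395, 381 and 380.2 CPM in the wild type. The R554Q and wild-type libraries overlapped, since R554Q replicate 2 lay below wild-type replicate 1. D29H replicate 1 was the highest of all 12 libraries for 17 of the 38 members, D29H replicate 2 for 9 and D29H replicate 3 for 6. No Nrf2 library was the lowest of the 12 for any member. How often each library was highest or lowest over all genes was not counted.

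**Figure D2:**
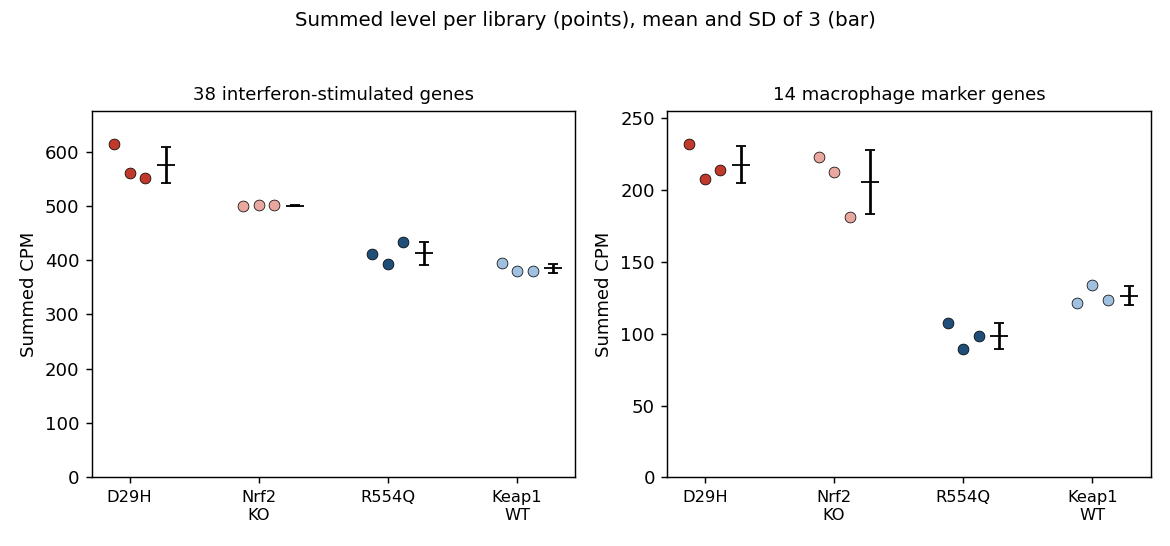
Summed CPM of the 38 members (left) and of 14 macrophage marker genes (right) in each library (points), with mean and SD of 3 libraries (bars), by group; both axes start at 0. Both sums are higher in every Nrf2 library than in every Keap1 library.

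In the Nrf2 cells, 2 members rose with Cre virus and none fell. Stat2, a subunit of ISGF3, and Bst2 were called higher in D29H than in the labelled knockout by edgeR's quasi-likelihood test with Benjamini-Hochberg adjustment over all 14370 genes tested, of which 3.47% were called higher, 1.28% lower and 4.75% either way. Of the 38 members, 35 had enough reads to be tested, so that the share called was near the background. The count was 0 without D29H replicate 3, 1 without labelled knockout replicate 2 and 5 without labelled knockout replicate 1. It was 6 when low counts were left in, beside 3.34% of genes higher, the added ones being Gbp3, Isg15, Uba7 and Xaf1. The direction was shared more widely than the calls: 31 of the 35 estimates were positive, beside 50.1% of all genes. The members' median log2 difference was 0.31 beside 0.00 over all genes. All members were read from the same 6 libraries, so their directions are not separate observations. At an unadjusted p under 0.05 there were 13 of the 35 members, beside 22.9% of all genes. Without D29H replicate 1 the members' median was 0.16. The mitochondrial share of reads was 0.98, 1.77 and 1.06% in the D29H libraries and 0.90, 0.73 and 0.73% in the labelled knockout. Its part in the members' shift was not tested.

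Stat2 (ENSMUSG00000040033, chr10:128270576-128292849) had 37.9, 40.8 and 40.8 CPM in the D29H libraries, 31.5, 29.9 and 22.7 in the labelled knockout, 23.2, 23.1 and 19.8 in R554Q and 19.7, 17.3 and 19.9 in the wild type. Every D29H library was above every labelled knockout library, and labelled knockout replicate 3 lay inside the R554Q range. The Cre difference in the Nrf2 cells was 0.50 ± 0.11 (adjusted p = 0.0144) on the log2 scale, where ± is the standard error of a comparison of 3 libraries with 3. In the Keap1 cells it was 0.22 ± 0.10 (adjusted p = 0.193). Bst2 (ENSMUSG00000046718, chr8:71534264-71537437) had 42.2, 32.9 and 36.2 CPM in the D29H libraries, 27.97, 28.6 and 27.98 in the labelled knockout, 19.7, 18.1 and 20.4 in R554Q and 17.9, 17.3 and 20.2 in the wild type. The 3 D29H libraries were the highest of the 12, the labelled knockout libraries came next within a narrow range, and the Keap1 groups overlapped below them. Its Cre difference was 0.40 ± 0.11 (adjusted p = 0.0355) in the Nrf2 cells and 0.08 ± 0.10 (adjusted p = 0.687) in the Keap1 cells. Neither call held in every fit that left a library out: Stat2 lost it without D29H replicate 2 or D29H replicate 3 (0.49, adjusted p = 0.0885 to 0.113), and Bst2 without D29H replicate 1, D29H replicate 3, labelled knockout replicate 1 or labelled knockout replicate 2 (0.29 to 0.42, adjusted p = 0.0606 to 0.147). Bst2 also lost it when GC content and gene length were modelled (0.27, adjusted p = 0.133), with adjusted p from 0.0188 to 0.147 over its alternatives and from 0.00125 to 0.113 for Stat2. In the authors' deposited table, where 10 members had no adjusted p, the same 2 members passed, Stat2 at 0.42 (adjusted p = 0.0103) and Bst2 at 0.34 (adjusted p = 0.0375).

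Larger but noisier Cre differences in the Nrf2 cells did not pass the test. Mx2 is a relative of Mx1, and the deposited annotation labels it a polymorphic pseudogene. It had 0.961, 0.942 and 1.08 CPM in the D29H libraries, 0.601, 0.503 and 0.131 in the labelled knockout, 0.100, 0.272 and 0.247 in R554Q and 0.0474, 0.203 and 0.107 in the wild type. Its D29H libraries were all above the labelled knockout ones, at 1 to 24 reads per library over the series, and the log2 difference was 1.17 ± 0.42 (adjusted p = 0.098). Gbp3, one of the guanylate-binding GTPases that attack vacuoles of intracellular pathogens, had 2.79, 1.03 and 1.40 CPM in the D29H libraries, 0.987, 0.712 and 0.588 in the labelled knockout, 1.25, 0.725 and 1.09 in R554Q and 0.616, 0.709 and 0.482 in the wild type. The 3 D29H values were above the labelled knockout values, but replicate 1 was far above the others, and the difference was 1.15 ± 0.37 (adjusted p = 0.069). It was 0.64 without D29H replicate 1, and it passed without labelled knockout replicate 1 (1.39, adjusted p = 0.0439) and when low counts were left in (1.14, adjusted p = 0.0164). Oasl2, an oligoadenylate synthetase-like protein, had 1.14, 1.03 and 1.67 CPM in the D29H libraries, 0.686, 0.922 and 0.196 in the labelled knockout, 0.250, 0.544 and 0.346 in R554Q and 0.426, 0.456 and 0.161 in the wild type. Its D29H group did not overlap with the labelled knockout, whose replicate 3 was low, and the difference was 1.00 ± 0.39 (adjusted p = 0.133). Xaf1, a pro-apoptotic binding partner of XIAP, had 4.12, 2.38 and 2.49 CPM in the D29H libraries, 2.40, 1.30 and 1.44 in the labelled knockout, 0.851, 0.861 and 0.346 in R554Q and 0.805, 0.912 and 0.750 in the wild type. Here labelled knockout replicate 1 reached the D29H range, and the difference was 0.78 ± 0.28 (adjusted p = 0.0939). It was 0.48 without D29H replicate 1, and it too passed without labelled knockout replicate 1 (1.13, adjusted p = 0.0230) and when low counts were left in (0.77, adjusted p = 0.0315). Over the 36 members with enough reads in the 12-library table, 12 had D29H libraries all above the labelled knockout libraries (12.7% of genes) and 0 had them all below (12.6%).

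In the Keap1 cells, 2 other members rose with Cre virus and none fell. Gbp2, a guanylate-binding GTPase, and Tap1, which carries peptides into the endoplasmic reticulum for loading on MHC class I, were called higher in R554Q than in the wild type by the same edgeR test, in which 3.77% of 14128 genes were called higher, 2.4% lower and 6.17% either way. Here 29 of the 38 members had enough reads, and the share called was near the background. The count was 0 without R554Q replicate 1 or wild-type replicate 3, and 1 without R554Q replicate 2, wild-type replicate 1 or wild-type replicate 2. Without R554Q replicate 3 it was 4, of which Stat2, Gbp2 and Tap1 were higher and Ifit2 was lower (-0.38, adjusted p = 0.0318). With all 6 libraries, 20 were positive, beside 49.9% of all genes, with a median log2 difference of 0.18 (0.075 without R554Q replicate 3 and 0.088 without R554Q replicate 1). Of the members, 6 had an unadjusted p under 0.05, beside 24.2% of all genes, which is also near the background.

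Gbp2 (ENSMUSG00000028270, chr3:142620602-142638008) had 5.86, 3.86 and 3.61 CPM in the D29H libraries, 3.90, 3.81 and 4.77 in the labelled knockout, 6.51, 5.03 and 7.76 in R554Q and 4.12, 4.36 and 2.79 in the wild type. R554Q was above the wild type in all libraries, and of the other 9 libraries only D29H replicate 1 reached its range. The log2 difference was 0.77 ± 0.20 (adjusted p = 0.0286) in the Keap1 cells and 0.10 ± 0.20 (adjusted p = 0.791) in the Nrf2 cells. Tap1 (ENSMUSG00000037321, chr17:34187553-34197225) had 17.7, 16.1 and 19.1 CPM in the D29H libraries, 14.7, 16.3 and 19.5 in the labelled knockout, 15.5, 16.8 and 17.2 in R554Q and 12.5, 13.1 and 13.1 in the wild type. The wild-type libraries were the 3 lowest of the 12, and the other 9 overlapped. Its difference was 0.36 ± 0.10 (adjusted p = 0.0475) in the Keap1 cells and 0.07 ± 0.13 (adjusted p = 0.764) in the Nrf2 cells. Gbp2 lost its call without R554Q replicate 1 or wild-type replicate 3 (0.60 to 0.76, adjusted p = 0.12 to 0.124), with adjusted p from 0.00052 to 0.124 over its alternatives. Tap1 lost it in 9 of 15 alternatives (adjusted p = 0.0363 to 0.217), among them without R554Q replicate 1, R554Q replicate 2, wild-type replicate 1, wild-type replicate 2 or wild-type replicate 3 (0.34 to 0.40, adjusted p = 0.0997 to 0.16) and the fit with GC content and gene length (0.23, adjusted p = 0.217). In the authors' deposited table, where 22 members had no adjusted p, Gbp2 passed at 0.46 (adjusted p = 0.0183) and Tap1 was listed at 0.30 (adjusted p = 0.057). Rtp4, a chaperone of receptor trafficking, had the largest estimate that did not pass in the Keap1 cells, 0.82 ± 0.36 (adjusted p = 0.166), and was at 0.41 without R554Q replicate 3. For 6 members the R554Q libraries were all above the wild type (12.9% of genes). For 1, the RNA sensor gene Ifih1, they were all below (13.9% of genes), with a difference of -0.41 ± 0.18 (adjusted p = 0.159).

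**Figure D3:**
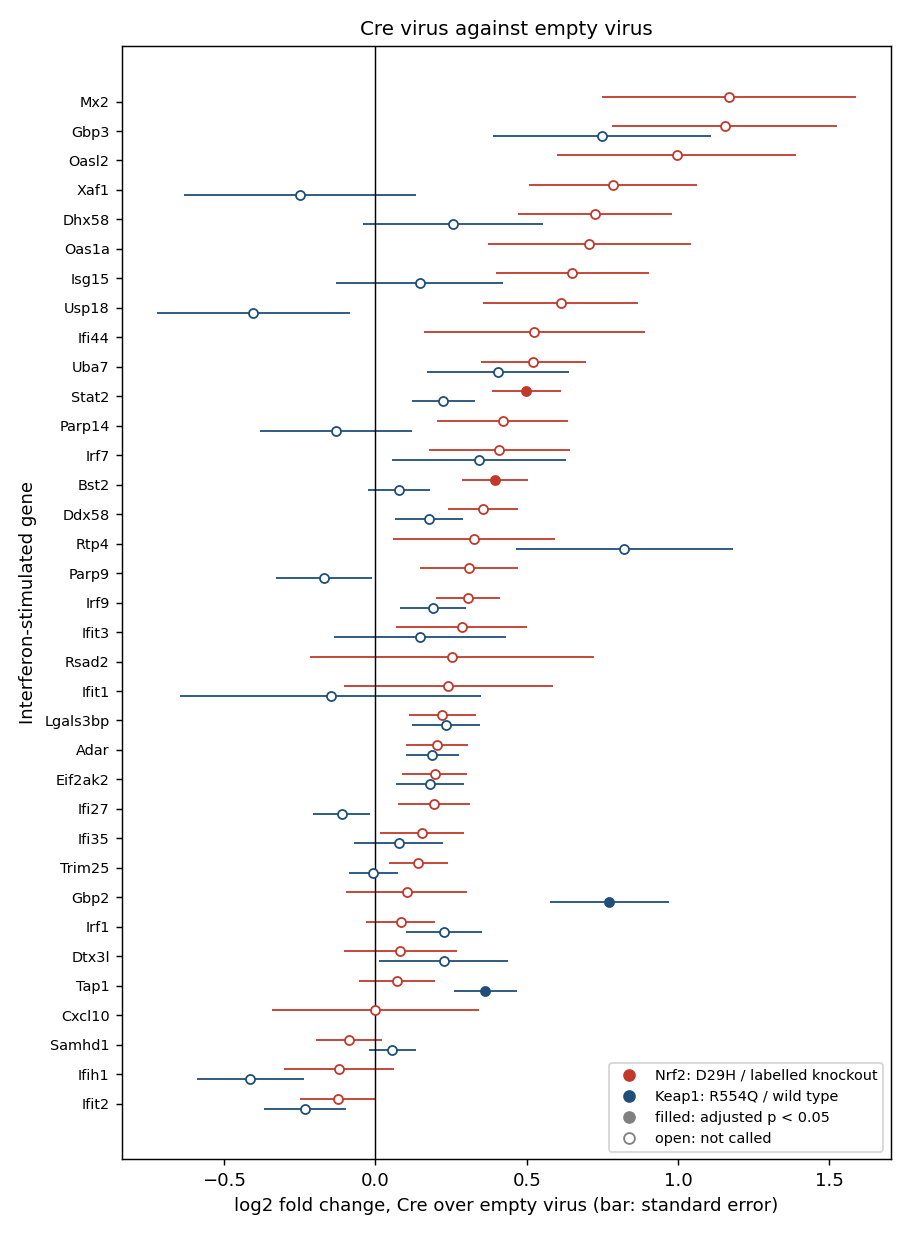
Log2 fold change of Cre over empty virus for each tested member (points; bars are standard errors; filled where adjusted p is under 0.05) in the Nrf2 cells (red) and the Keap1 cells (blue). Filled points are Stat2 and Bst2 in red and Gbp2 and Tap1 in blue, and most red points lie to the right of 0.

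Whether the 2 Cre effects differed was tested directly in a fit of all 12 libraries, and no member passed. The difference of Cre effects was called for 0 of 36 members by edgeR, 0 by DESeq2 and 0 by limma, beside 0.027% of genes by edgeR. At an unadjusted p under 0.05 edgeR gave 4 members, Usp18, Bst2, Gbp2 and Xaf1, beside 11.3% of genes, so that this share was near the background. The estimate, Nrf2 minus Keap1, was 0.28 ± 0.16 (adjusted p = 0.517) for Stat2 and 0.33 ± 0.15 (adjusted p = 0.412) for Bst2. It was -0.66 ± 0.30 (adjusted p = 0.415) for Gbp2 and -0.28 ± 0.16 (adjusted p = 0.519) for Tap1. The members called in only one set of cells were not shown to respond in that set alone. The lowest p among the 4 was that of Usp18, the protease that takes Isg15 off its targets and dampens the interferon receptor. Usp18 had 3.52, 2.20 and 2.67 CPM in the D29H libraries, 1.5, 2.35 and 1.57 in the labelled knockout, 1.45, 0.861 and 1.29 in R554Q and 2.13, 1.52 and 1.07 in the wild type. Its labelled knockout and wild-type libraries overlapped, D29H was higher than R554Q throughout, and the Cre difference was 0.61 ± 0.26 (adjusted p = 0.156) in the Nrf2 cells and -0.40 ± 0.32 (adjusted p = 0.469) in the Keap1 cells. Its difference of Cre effects was 1.02 ± 0.42 (adjusted p = 0.373), and that of Xaf1 was 1.04 ± 0.50 (adjusted p = 0.44).

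The contrast that moved many members was that between the 2 sets of cells. With empty virus, 14 of 36 members were higher in the labelled knockout than in the wild type and none was lower, beside 9.58% of genes called higher, 10.1% lower and 19.7% either way. Without wild-type replicate 3 that count was 9. With Cre virus, 23 of 36 were higher in D29H than in R554Q and none was lower, beside 13.1% higher, 13.4% lower and 26.5% either way. The median log2 difference of the members was 0.57 and 0.90, against -0.01 and 0.01 for all genes. In each contrast 35 of the 36 members were positive, the exception being Zbp1 with empty virus and Gbp2 with Cre virus. Over all genes 48.6% were positive with empty virus and 51.6% with Cre virus. The 2 contrasts use different libraries but the same 2 sets of cells. Of the calls, 12 were shared, which is 85.7% of the 14 and 52.2% of the 23. For 14 members all 6 Nrf2 libraries lay above all 6 Keap1 libraries (6.44% of genes), and for 0 they lay below (6.85%). Taken by virus, the groups stood apart with the Nrf2 cells higher for 25 members with empty virus (17.9% of genes) and 22 with Cre virus (18.3%), and with the Nrf2 cells lower for 0 in either state (19.1% and 19.0%). Where a pair of log2 differences is given for a member, the first is with empty virus and the second with Cre virus. In bulk RNA, fewer cells of a type and less RNA per cell cannot be told apart.

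A filter on low reads can favour genes that are high in 1 group, so the members were also read without it. Among the 29 members with enough reads in both tables, 13 were higher with empty virus (9.78% of genes that met the same condition) and 18 with Cre virus (13.0%), and 29 and 28 were positive. With no filter, all 38 members gave 13 higher and 0 lower with empty virus, beside 6.85% and 6.82% of genes. With Cre virus they gave 24 higher and 1 lower, Gbp2, beside 9.16% and 9.33%.

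Markers of macrophages, cells that also express interferon-stimulated genes and can be carried along in embryo cultures, moved with the contrast between the cells. Of 15 markers listed, 14 had a row, Adgre1 not being among them, and their summed level was 208 to 232 CPM in D29H, 181 to 223 in the labelled knockout, 89.6 to 107 in R554Q and 121 to 134 in the wild type. With empty virus 12 of 14 were higher in the Nrf2 cells (median 1.09), beside 9.58% of all genes, and with Cre virus 13 of 14 (median 1.26), beside 13.1%. The 12 were C1qa, C1qb, C1qc, Cd14, Cd68, Csf1r, Fcer1g, Itgam, Laptm5, Mrc1, Ptprc and Tyrobp, to which Lyz2 was added with Cre virus. Csf1r, the receptor that macrophages need, was higher by 1.37 ± 0.11 (adjusted p = 9.5e-09) with empty virus. The defining marker Ptprc was present at 2.03 to 3.98 CPM in the Nrf2 libraries and 0.751 to 2.23 in the Keap1 libraries, and Aif1 was under 1 CPM in each of the 12. The part of these cells in the members' differences between the 2 sets of cells was not tested. In the Cre comparison of the Nrf2 cells 0 of 14 markers were called by edgeR, DESeq2 or limma (1 at an unadjusted p under 0.05 by edgeR), with a median log2 difference of -0.02. In that of the Keap1 cells the markers' median was -0.26, 3 of 14 estimates were positive and 4 had an unadjusted p under 0.05. Among them 1 was called, the lysozyme gene Lyz2, which fell by 0.53. The part of these cells in the members' Cre differences in the Keap1 cells was not tested. Endothelial markers summed to 15.2 to 23.8 CPM over the 12 libraries, and epithelial ones to 2.74 to 4.36 CPM in the Nrf2 cells and 6.89 to 8.71 CPM in the Keap1 cells. Markers of other cell types moved as well. Of 3 epithelial markers tested, the keratin gene Krt18 and the claudin gene Cldn4 were lower in the Nrf2 cells with empty virus (-0.92 and -2.59) and with Cre virus (-1.23 and -1.95). Cldn4 was also higher with Cre virus in the Nrf2 cells (2.40) and in the Keap1 cells (1.76). Of 4 neural markers, Map2 was higher in the Nrf2 cells (1.00 and 0.98) and Tubb3 lower (-0.32 and -0.62). The muscle marker Des was lower in R554Q than in the wild type (-0.45) and higher in D29H than in R554Q (0.45). Of 10 fibroblast markers, Col1a1, Col1a2, Col3a1, Lum and Pdgfrb were higher in the Nrf2 cells in both states, led by Col3a1 (1.00 and 0.93) and Lum (0.90 and 1.29), and Vim was lower with Cre virus (-0.30). Pdgfra was higher in R554Q than in the wild type (0.36). The part of these cell types in the members' differences was not tested either.

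**Figure D4:**
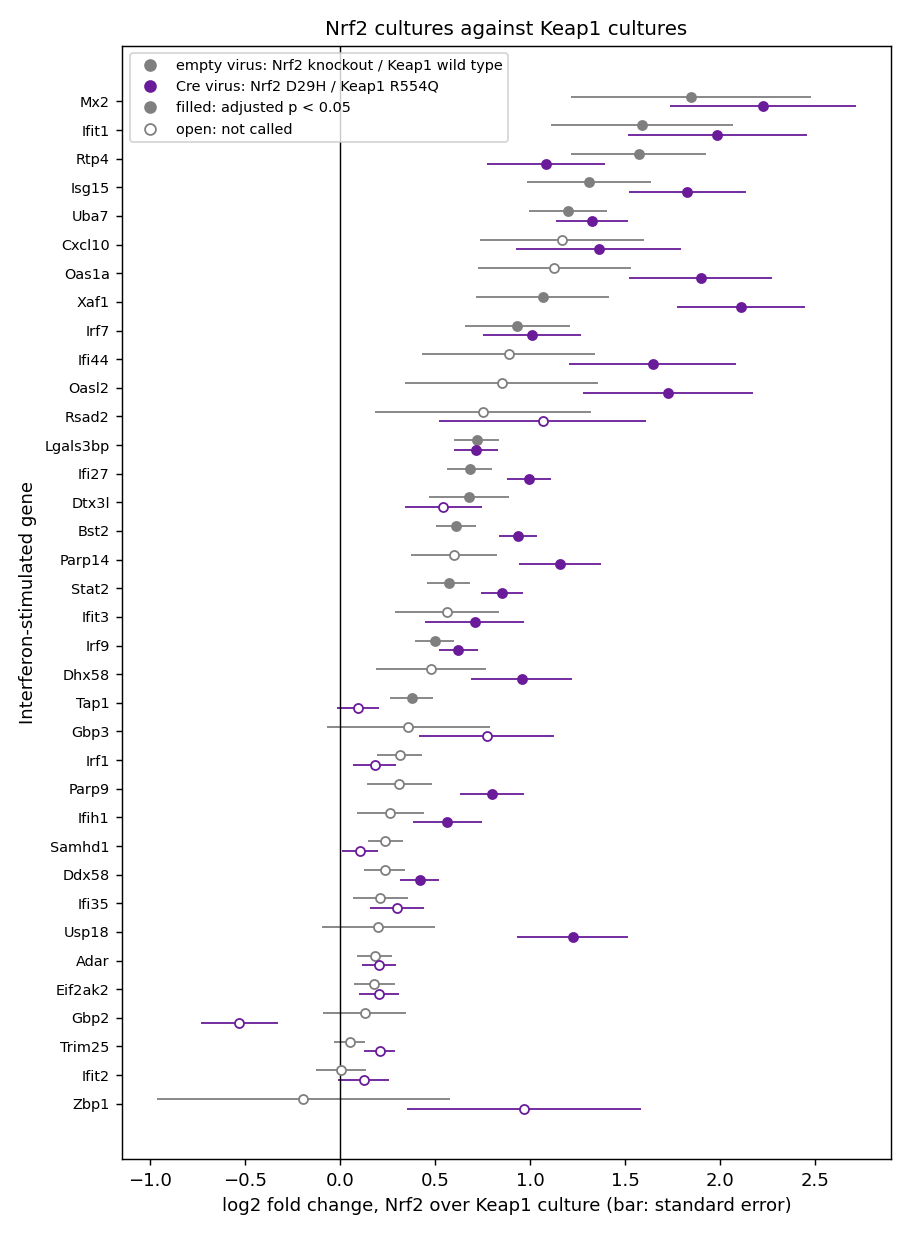
Log2 fold change of Nrf2 over Keap1 cells for the 36 tested members with empty virus (grey) and with Cre virus (purple); bars are standard errors and filled points have an adjusted p under 0.05. All filled points lie to the right of 0, up to 1.85 with empty virus and 2.23 with Cre virus, both for Mx2.

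Among the secreted products, all 3 were higher in D29H than in R554Q, beside 13.1% of all genes. Isg15 (ENSMUSG00000035692, chr4:156199424-156200818), which is released as well as conjugated, had 11.4, 3.81 and 6.73 CPM in the D29H libraries, 5.49, 4.90 and 3.27 in the labelled knockout, 2.65, 1.27 and 2.27 in R554Q and 1.99, 1.98 and 1.61 in the wild type. The lowest Nrf2 library was above the highest Keap1 library, and D29H was the most scattered group. Isg15 was higher by 1.31 ± 0.33 (adjusted p = 0.00611) with empty virus and 1.83 ± 0.31 (adjusted p = 0.000141) with Cre virus. Lgals3bp had 54.0, 39.8 and 43.3 CPM in the D29H libraries, 40.1, 40.0 and 37.1 in the labelled knockout, 28.5, 23.6 and 31.3 in R554Q and 22.4, 22.2 and 26.7 in the wild type. Its groups did not overlap between the 2 sets of cells, and the log2 difference was 0.72 ± 0.12 (adjusted p = 0.000127) and 0.72 ± 0.12 (adjusted p = 9.74e-05). Cxcl10, a chemokine that draws T cells, had 0.824, 0.673 and 1.13 CPM in the D29H libraries, 0.601, 1.21 and 0.784 in the labelled knockout, 0.451, 0.408 and 0.148 in R554Q and 0.379, 0.405 and 0.375 in the wild type, from 3 to 29 reads per library. The Nrf2 libraries were all above the Keap1 ones here too, but the difference passed with Cre virus alone, 1.36 ± 0.43 (adjusted p = 0.0234), and was 1.17 ± 0.43 (adjusted p = 0.0613) with empty virus. With Cre virus the Cxcl10 call was lost without D29H replicate 3 or R554Q replicate 3 (1.03 to 1.14, adjusted p = 0.115). Reads of Cxcl10 overlap those of Art3 on the opposite strand, whose reads came to 12.7% of the Cxcl10 reads.

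Of the 4 transcription factors, Stat2, Irf9 and Irf7 were higher in the Nrf2 cells in both states, and Irf1 in neither, beside 9.58% of all genes with empty virus and 13.1% with Cre virus. Stat2, whose values are given above, differed by 0.57 ± 0.11 (adjusted p = 0.000837) and 0.85 ± 0.11 (adjusted p = 6.5e-06). Irf9 had 31.4, 31.5 and 28.7 CPM in the D29H libraries, 26.1, 23.8 and 24.0 in the labelled knockout, 20.1, 19.5 and 19.9 in R554Q and 20.2, 15.3 and 16.8 in the wild type. The Nrf2 and Keap1 libraries did not overlap, and the differences were 0.50 ± 0.10 (adjusted p = 0.00129) and 0.62 ± 0.10 (adjusted p = 9.37e-05). Irf7, the factor that amplifies interferon production, had 5.03, 3.19 and 2.58 CPM in the D29H libraries, 2.53, 2.89 and 2.68 in the labelled knockout, 2.40, 1.72 and 1.24 in R554Q and 1.42, 1.32 and 1.5 in the wild type. Its D29H replicate 1 stood apart above the rest, although every Nrf2 library was still above every Keap1 library. It differed by 0.93 ± 0.28 (adjusted p = 0.0195) and 1.01 ± 0.26 (adjusted p = 0.00594). The Irf7 call was lost without labelled knockout replicate 2, wild-type replicate 1 or wild-type replicate 2 (0.88 to 0.95, adjusted p = 0.0559 to 0.0728) with empty virus, and without D29H replicate 1 (0.68, adjusted p = 0.0512) with Cre virus. Irf9 overlaps Rnf31 on the same strand and Irf7 overlaps Phrf1 on the other, and the reads of Phrf1 came to 4018% of those of Irf7, so counts of both members are uncertain.

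The sensors were higher in D29H than in R554Q for 3 of 4, beside 13.1% of all genes, and not called with empty virus (9.58%). Ddx58 encodes RIG-I, which senses RNA ends, and had 20.0, 19.9 and 17.6 CPM in the D29H libraries, 14.4, 15.1 and 15.6 in the labelled knockout, 13.7, 13.6 and 15.7 in R554Q and 12.5, 13.4 and 12.3 in the wild type. D29H was above all other groups, and the D29H against R554Q difference was 0.42 ± 0.10 (adjusted p = 0.0042). Dhx58, which encodes the regulator LGP2, had 2.75, 3.81 and 2.30 CPM in the D29H libraries, 1.93, 2.01 and 1.31 in the labelled knockout, 1.40, 1.95 and 1.19 in R554Q and 1.42, 0.962 and 1.45 in the wild type. D29H was above R554Q in all libraries, by 0.96 ± 0.27 (adjusted p = 0.0103). Ifih1, which encodes MDA5, a sensor of long double-stranded RNA, had 6.27, 3.95 and 4.79 CPM in the D29H libraries, 5.02, 5.24 and 6.14 in the labelled knockout, 3.26, 2.99 and 3.90 in R554Q and 4.41, 4.66 and 4.50 in the wild type. R554Q was the lowest group, D29H overlapped with the labelled knockout, and D29H exceeded R554Q by 0.57 ± 0.18 (adjusted p = 0.0237). Dhx58 lost its call without D29H replicate 2 (0.73, adjusted p = 0.0826). Ifih1 lost its call without D29H replicate 1, R554Q replicate 1 or R554Q replicate 2 (0.36 to 0.55, adjusted p = 0.0698 to 0.143) and in a fit of the 6 libraries with Cre virus alone (0.56, adjusted p = 0.0533). Zbp1, a sensor of Z-form nucleic acid, had 1 to 17 reads per library and was not called.

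The antiviral effectors were the largest role, with 13 of 15 members tested. With empty virus 3 of the 13 were higher (Bst2, Ifit1 and Mx2) and with Cre virus 6 (those 3, Ifit3, Oas1a and Oasl2), beside 9.58% and 13.1% of all genes. Bst2 differed by 0.61 ± 0.10 (adjusted p = 0.000174) and 0.94 ± 0.10 (adjusted p = 5.78e-07). Ifit1, which binds RNA that lacks the host's cap methylation, had 3.34, 1.08 and 1.58 CPM in the D29H libraries, 1.03, 2.22 and 1.83 in the labelled knockout, 0.501, 0.272 and 0.741 in R554Q and 0.237, 0.912 and 0.536 in the wild type. Every Nrf2 library was above every Keap1 library, within a wide spread in each group. It differed by 1.59 ± 0.48 (adjusted p = 0.0208) and 1.99 ± 0.47 (adjusted p = 0.00336). Ifit3, its partner, had 5.49, 3.10 and 3.34 CPM in the D29H libraries, 3.05, 3.35 and 3.40 in the labelled knockout, 1.65, 1.90 and 3.76 in R554Q and 1.89, 2.48 and 2.25 in the wild type. R554Q replicate 3 reached the Nrf2 range while the other Keap1 libraries were below it, and the difference was 0.56 ± 0.27 (adjusted p = 0.165) and 0.71 ± 0.26 (adjusted p = 0.0493). The Ifit1 call was lost without labelled knockout replicate 2, wild-type replicate 1 or wild-type replicate 3 (1.21 to 1.57, adjusted p = 0.0667 to 0.12) with empty virus. The Ifit3 call with Cre virus held in 3 of the 12 fits that left a library out, and its value ran from 0.40 without D29H replicate 1 to 1.16 without R554Q replicate 3. It was lost without D29H replicate 1, D29H replicate 3, labelled knockout replicate 1, labelled knockout replicate 2, R554Q replicate 1, R554Q replicate 2, wild-type replicate 1, wild-type replicate 2 or wild-type replicate 3 (0.40 to 0.82, adjusted p = 0.0514 to 0.283).

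Oas1a, which makes the oligoadenylate that activates RNase L, had 1.69, 1.88 and 1.13 CPM in the D29H libraries, 1.07, 0.628 and 1.24 in the labelled knockout, 0.351, 0.498 and 0.395 in R554Q and 0.616, 0.304 and 0.375 in the wild type. The 2 sets of cells did not overlap, and it differed by 1.13 ± 0.40 (adjusted p = 0.0531) and 1.90 ± 0.38 (adjusted p = 0.000751). Mx2 and Oasl2, given above, differed by 2.23 ± 0.49 (adjusted p = 0.00186) and 1.72 ± 0.45 (adjusted p = 0.00666) with Cre virus, and by 1.85 ± 0.63 (adjusted p = 0.0423) and 0.85 ± 0.51 (adjusted p = 0.266) with empty virus. The Mx2 call with empty virus was lost in 10 of 19 alternatives (adjusted p = 0.0128 to 0.180). Among these were DESeq2 (1.87, adjusted p = 0.0600), limma (1.15, adjusted p = 0.102) and the fit that kept genes with low counts (1.84, adjusted p = 0.0550), and the fits without D29H replicate 2, D29H replicate 3, labelled knockout replicate 1, labelled knockout replicate 2, wild-type replicate 1 or wild-type replicate 3 (1.46 to 1.85, adjusted p = 0.0521 to 0.18). Not every effector was called: Samhd1, the RNA-editing enzyme gene Adar, the kinase gene Eif2ak2 (PKR) and Ifit2 passed in neither contrast. Their differences were 0.24 ± 0.09, 0.18 ± 0.09, 0.18 ± 0.11 and 0.01 ± 0.13 with empty virus, and 0.11 ± 0.09, 0.21 ± 0.09, 0.20 ± 0.10 and 0.12 ± 0.13 with Cre virus. For Samhd1 and Adar the labelled knockout libraries still lay above all wild-type libraries. Gbp2 was the one effector lower in D29H than in R554Q, at -0.53 ± 0.20 (adjusted p = 0.0556), which did not pass. Rsad2, Oasl1 and Mx1 had 3 to 16 reads, 0 to 15 reads and 0 to 6 reads per library, and the last 2 were too low to test. The Ifit, Oas, Oasl, Gbp and Mx genes have close relatives, and reads shared with them could have been split in the counting.

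In the Isg15 system the activating enzyme was higher in the Nrf2 cells in both states. Uba7 (ENSMUSG00000032596, chr9:107975505-107984060), the E1 enzyme that loads Isg15, had 6.04, 7.13 and 6.42 CPM in the D29H libraries, 5.41, 4.57 and 3.46 in the labelled knockout, 2.55, 2.58 and 2.67 in R554Q and 1.75, 1.62 and 2.57 in the wild type. All 6 Nrf2 libraries were above all 6 Keap1 libraries, and D29H was above the labelled knockout throughout. The difference was 1.20 ± 0.21 (adjusted p = 0.00019) with empty virus and 1.33 ± 0.19 (adjusted p = 2.28e-05) with Cre virus, and both calls held in all 12 fits that left a library out. Usp18, which reverses the conjugation, differed by 1.22 ± 0.29 (adjusted p = 0.00352) with Cre virus and by 0.20 ± 0.30 (adjusted p = 0.695) with empty virus. Trim25, an E3 ligase that acts on RIG-I, had differences of 0.05 ± 0.08 (adjusted p = 0.721) and 0.21 ± 0.08 (adjusted p = 0.0609). The Uba7 Cre difference in the Nrf2 cells was 0.52 ± 0.17 (adjusted p = 0.0748).

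**Figure D5:**
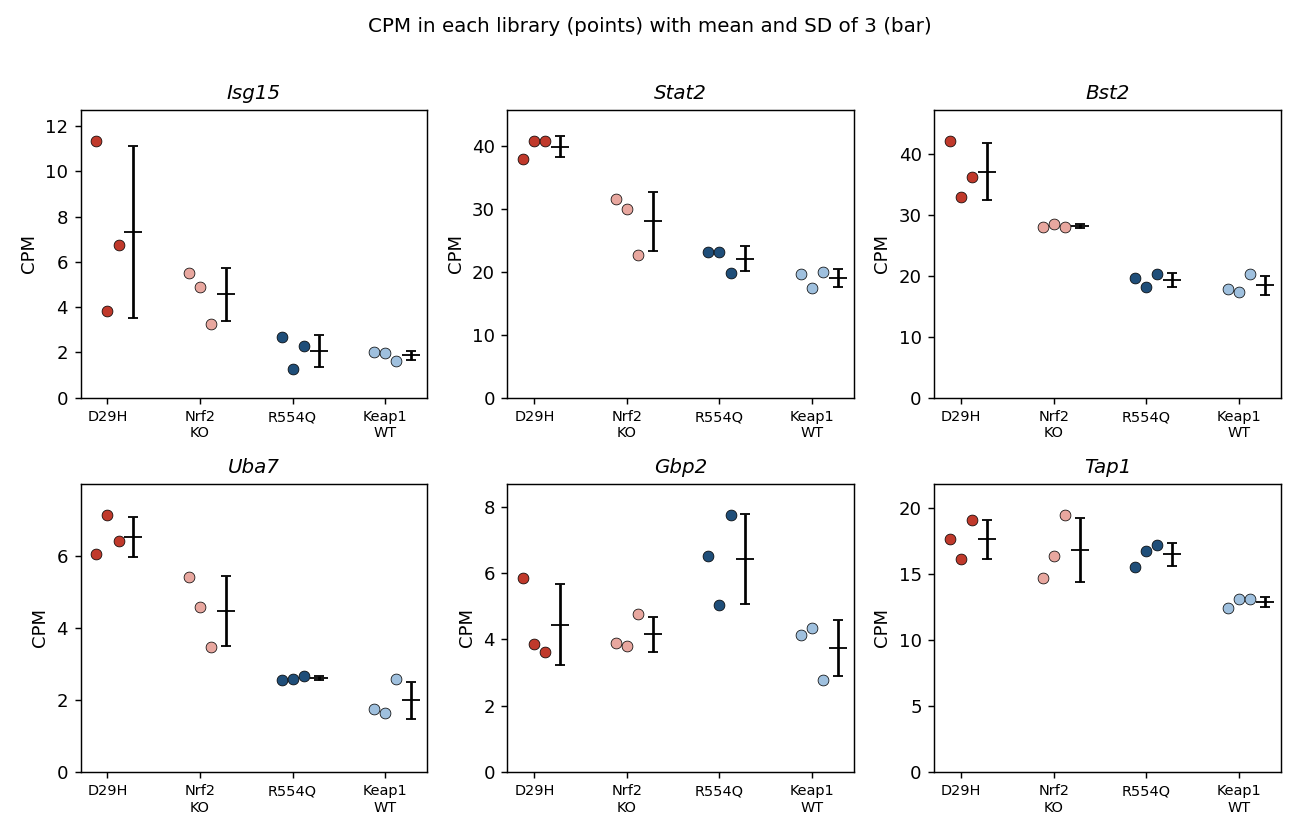
CPM of 6 members in each library (points) with the mean and SD of 3 libraries (bars), by group; axes start at 0. Isg15, Bst2 and Uba7 are higher in every Nrf2 library than in every Keap1 library, Gbp2 is highest in R554Q and Tap1 is lowest in the wild type.

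The PARP and E3 partners were higher with Cre virus for 2 of 3 members, beside 13.1% of all genes, and with empty virus for 1, beside 9.58%. Parp14, an ADP-ribosyltransferase, had 3.07, 4.22 and 3.48 CPM in the D29H libraries, 2.66, 2.22 and 3.27 in the labelled knockout, 1.45, 1.59 and 1.78 in R554Q and 1.66, 1.87 and 1.77 in the wild type. The Nrf2 libraries were above the Keap1 libraries without overlap, by 0.60 ± 0.22 (adjusted p = 0.0641) and 1.16 ± 0.22 (adjusted p = 0.000441). Parp9 had 12.4, 9.92 and 7.37 CPM in the D29H libraries, 7.64, 8.84 and 7.32 in the labelled knockout, 6.21, 6.12 and 4.70 in R554Q and 5.92, 6.18 and 7.18 in the wild type. It did not overlap between the sets of cells either, although by a small margin, and differed by 0.31 ± 0.17 (adjusted p = 0.219) and 0.80 ± 0.17 (adjusted p = 0.00125). Dtx3l, the E3 ligase that pairs with Parp9, had 5.49, 5.97 and 4.52 CPM in the D29H libraries, 4.55, 4.19 and 6.60 in the labelled knockout, 3.21, 3.08 and 4.70 in R554Q and 3.32, 3.49 and 2.57 in the wild type. R554Q replicate 3 was inside the D29H range, and the differences were 0.68 ± 0.21 (adjusted p = 0.0244) and 0.54 ± 0.20 (adjusted p = 0.0503), so that only the first passed. Dtx3l lost its call without labelled knockout replicate 3 or wild-type replicate 3 (0.48 to 0.57, adjusted p = 0.11 to 0.125). Parp9 and Dtx3l overlap on opposite strands, and whether the counting used strand is not given in the sources used here.

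Tap1 was higher with empty virus, by 0.38 ± 0.11 (adjusted p = 0.0218), and not with Cre virus, at 0.10 ± 0.11 (adjusted p = 0.555). Its call was lost in 6 of 21 alternatives, among them the fits without labelled knockout replicate 2, labelled knockout replicate 3, wild-type replicate 1 or wild-type replicate 3 (0.27 to 0.40, adjusted p = 0.0505 to 0.116) and the fit with GC content and gene length (0.31, adjusted p = 0.0505). Among the other induced genes, Ifi27 had 74.3, 55.0 and 56.1 CPM in the D29H libraries, 60.7, 54.3 and 46.4 in the labelled knockout, 33.5, 27.8 and 31.7 in R554Q and 35.8, 32.4 and 32.6 in the wild type. The 6 Nrf2 libraries were all above the 6 Keap1 libraries, by 0.68 ± 0.12 (adjusted p = 0.000188) and 1.00 ± 0.12 (adjusted p = 1.61e-06). Rtp4 had 4.30, 2.38 and 1.85 CPM in the D29H libraries, 2.27, 2.39 and 2.09 in the labelled knockout, 1.102, 0.906 and 2.03 in R554Q and 0.663, 0.760 and 0.857 in the wild type. R554Q replicate 3 overlapped with D29H, and the differences were 1.57 ± 0.35 (adjusted p = 0.0026) and 1.08 ± 0.31 (adjusted p = 0.0129). With Cre virus Rtp4 lost its call without D29H replicate 1, R554Q replicate 1 or R554Q replicate 2 (0.65 to 0.97, adjusted p = 0.0577 to 0.121). Xaf1 differed by 1.07 ± 0.35 (adjusted p = 0.0344) and 2.11 ± 0.34 (adjusted p = 7.75e-05), the second being among the largest of the members. With empty virus Xaf1 lost its call without labelled knockout replicate 1, wild-type replicate 1, wild-type replicate 2 or wild-type replicate 3 (0.72 to 1.16, adjusted p = 0.0673 to 0.238). Ifi44 had 1.88, 0.942 and 0.859 CPM in the D29H libraries, 0.686, 1.01 and 0.850 in the labelled knockout, 0.351, 0.181 and 0.643 in R554Q and 0.379, 0.355 and 0.643 in the wild type. Its Nrf2 and Keap1 libraries did not overlap, and it passed with Cre virus at 1.65 ± 0.44 (adjusted p = 0.00801) but not with empty virus at 0.89 ± 0.46 (adjusted p = 0.189). Ifi44 lost its call without D29H replicate 1 (1.20, adjusted p = 0.0591). Ifi35 was called in neither, at 0.21 ± 0.15 and 0.30 ± 0.14.

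The rest of the pathway was read from lists of ligands, receptors, regulators and further interferon-stimulated genes. Interferon itself was nearly unread: of 21 type I, II and III ligand genes listed, 6 had a row, with at most 10 reads in a library and 57 reads in all 12. Among all genes 3.47% were called higher with Cre virus in the Nrf2 cells and 3.77% in the Keap1 cells. Between the cells 9.58% were called higher and 10.1% lower with empty virus, and 13.1% and 13.4% with Cre virus. Of 9 receptor and kinase genes listed, 8 were tested in the Cre comparisons and 9 between the cells. Of these, Tyk2 rose with Cre virus in the Nrf2 cells (0.46), and Ifngr2, a chain of the receptor for interferon gamma, was lower in the Nrf2 cells with empty virus (-0.25) and with Cre virus (-0.31). Of 12 genes that induce interferon, the kinase gene Ikbke rose with Cre virus in the Nrf2 cells (0.56). Irf3, Tmem173 (STING) and Mb21d1 (cGAS) were higher in the Nrf2 cells with empty virus (0.35, 0.46 and 0.67) and with Cre virus (0.29, 0.36 and 0.84). With Cre virus Tlr9 was also higher (2.67), at under 1 CPM in every library, and Ticam1 lower (-0.34). Of 5 negative regulators with a row, Socs1 and Socs3 were higher in the Nrf2 cells with empty virus (0.57 and 0.81) and with Cre virus (0.46 and 0.61). Socs3 also rose with Cre virus in the Keap1 cells (0.35).

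Of 76 further interferon-stimulated genes listed, 58 could be tested in the 12-library table, with calls in both directions. In D29H 4 of 58 were higher than in the labelled knockout (Ifi202b, Helz2, Parp10 and Rnf213), beside 3.47% of all genes, and none was lower. In R554Q 2 of 48 were higher than in the wild type (Tapbp and Pml), beside 3.77%, and none was lower, so that this share was near the background. Between the cells with empty virus 17 of 58 were higher and 2 lower in the Nrf2 cells, beside 9.58% and 10.1% of all genes, with a median of 0.29. With Cre virus 21 were higher and 3 lower, beside 13.1% and 13.4%, with a median of 0.42. Higher in both states were Apol9a, H2-K1, Helz2, Ifi202b, Ifi203, Ifitm3, Nmi, Oas1b, Parp10, Plscr1, Rnf213 and Slfn2. Higher with empty virus but not called with Cre virus were Apol9b, Ifi204, Irgm2, Sp100 and Tapbp. Higher with Cre virus but not called with empty virus were Ifitm1, Igtp, Parp12, Phf11d, Psmb8, Psmb9, Slfn8, Slfn9 and Trim34a. The lower ones were B2m, the light chain of MHC class I (-0.49 and -0.31), Nlrc5, the activator of MHC class I genes (-1.40 and -1.05), and, with Cre virus, Shisa5 (-0.24). The widest gap was that of Ifi202b, which encodes an interferon-inducible DNA-binding protein and had 5.49 to 10.6 CPM in the Nrf2 libraries and 0 to 0.0506 CPM in the Keap1 libraries.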

How the data were processed

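RNA was sequenced from 12 libraries of mouse embryonic fibroblasts, 3 in each of 4 groups, which were read from title, genotype and treatment. Each allele has its own table. In it the authors deposited read counts without normalisation and FPKM, per the file headers. The tables also hold the authors' mean normalised count of each group (a signal), log2 fold change, p-value and adjusted p, which entered no test here. STAR, DESeq2 and mm10 are named in the submitters' processing notes. The counting tool, annotation and use of strand are not given in the sources used here. Gene positions and lengths were the same in both tables for the 20844 genes in both.

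Counts were tested with edgeR 4.0.16 (R 4.3.3): filterByExpr removed low genes, TMM gave the scaling, and the quasi-likelihood F test was adjusted by Benjamini-Hochberg over all genes tested, with a threshold of 0.05. Each Cre comparison was fitted on its own 6 libraries. The difference of Cre effects and the contrasts between the Nrf2 and Keap1 cells used all 12, and CPM were scaled by TMM over the 12. The scripts were tested on simulated data. Alternatives were DESeq2 1.42.0, limma 3.58.1, other scalings and filters, a replicate block, GC content and gene length as offsets, and leaving out each library.

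The 38 members and the pathway and marker lists were chosen with earlier results of these data known. Values in every library are given for members called in any of the 5 contrasts and for the 5 with the largest Cre difference that did not pass, some of which are also called between the cells. Called genes of the pathway and marker lists are named.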

Additional observations from a re-analysis of the deposited data

How the results depend on the processing

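The direction of every one of the 46 named gene results held in all 893 alternatives run. Of the results, 24 lost their call at least once, counting the replicate block described below. Counts of called members moved as follows. At an adjusted p under 0.01 the count was 0 for the Nrf2 Cre comparison, 0 for the Keap1 one and 8 between the cells with empty virus. With no filter on low counts it was 6 for the Nrf2 Cre comparison. For the Keap1 Cre comparison it was 1 in a fit of all 12 libraries, with limma, with GC content and gene length as offsets, and with the replicate block. The replicate block left 2 for the Nrf2 Cre comparison and 0 for the difference of Cre effects. Between the cells, the block fit compared the fitted levels of replicate 1 and not the group means. Its counts there, 6 with empty virus and 14 with Cre virus, are therefore no check on the calls between the cells. The same holds for Stat2, Irf9 and Irf7, which that edgeR fit did not call with empty virus (adjusted p = 0.0680, 0.0988 and 0.187), and for Irf7 with Cre virus (0.109). With a mean count of at least 50, 15 members were called between the cells with Cre virus, and the members' median log2 difference was 0.13 for the difference of Cre effects, 0.39 between the cells with empty virus and 0.59 with Cre virus. Beyond the use of replicate 1 levels and the fewer genes that enter under the higher filter, the cause of these moves was not tested.

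Leaving out 1 library gave 0 to 5 called members for the Nrf2 Cre comparison (median 0.16 to 0.42) and 0 to 4 for the Keap1 one (median 0.075 to 0.20). It gave 0 for the difference of Cre effects (median 0.13 to 0.28), 9 to 16 between the cells with empty virus (median 0.52 to 0.58) and 20 to 26 with Cre virus (median 0.68 to 0.95). Called in each of those fits were 0 of 2, 0 of 2, 8 of 14 and 16 of 23 members. The replicate numbers did not pair the libraries: deviations of same-numbered libraries correlated at -0.10 to -0.02 in the Nrf2 cells, -0.17 to 0.03 in the Keap1 cells, -0.05 to 0.03 between the cells with empty virus and -0.19 to 0.12 with Cre virus. Depth limits the low members most, since 12 of 38 had under 10 reads in some library.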
